A study of Mus musculus with 37 samples.

Results

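Squalene epoxidase (Sqle) and 7 further genes of cholesterol synthesis and its control, Hmgcs1, Mvd, Idi1, Fdft1, Cyp51, Dhcr7 and Insig1, were followed in mouse tailbuds between 6 and 11 somites. They are 8 of the 35542 genes in the deposited count table, taken by their symbols, and all 8 passed the filter on low counts in each fit below. Sqle was chosen by its slope on somite number in Smchd1wt embryos, and the other 7 were named with it, with results of these data known. The slopes and levels of the 8 genes in Smchd1wt embryos and their co-variation are therefore given as a description without a test. The tests below rest on Smchd1matΔ embryos, which that slope did not use, and on the comparisons of genotype and of sex. This independence covers the choice of Sqle. Whether Smchd1matΔ values were known when the other 7 genes and the lists of further genes below were chosen is not stated. For these the Smchd1matΔ slope may therefore not be an independent test.

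Poly(A) RNA was sequenced from 37 tailbuds, 1 library per embryo, dissected from embryos at embryonic day 8 to 8.5. All embryos were C57BL/6/Cast F1. Smchd1wt embryos (n = 21) carried the genotype Smchd1 fl/+, with a floxed but undeleted maternal allele. Smchd1matΔ embryos (n = 16) carried Smchd1 del/+. Their mothers were Smchd1 del/fl, with 1 allele already deleted and the floxed one deleted in the oocyte by an MMTV-Cre transgene. The oocyte supply of SMCHD1 and the maternal copy were thus both missing while the paternal copy remained. SMCHD1 binds chromatin and keeps certain genes silent. There were 4 Smchd1wt and 4 Smchd1matΔ embryos at 6 somites, 4 and 3 at 7, 3 and 2 at 8, 3 and 2 at 9, 4 and 3 at 10, and 3 and 2 at 11 somites, and 24 embryos were female and 13 male. The labels number the embryos within a group but do not give litters.

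Libraries held 916444 to 80579115 counts. The tailbud genes T and Tbx6 were present in every embryo, at 100 to 362 and at 12.2 to 59.0 CPM (counts scaled to the size of the library) respectively. Smchd1 itself was 149 ± 22.8 CPM (SD, n = 21) in Smchd1wt and 88.7 ± 13.3 CPM (n = 16) in Smchd1matΔ embryos. Of the Smchd1matΔ libraries at 6 somites, replicates 1 and 2 were rich in counts from the ribosomal RNA locus, and replicate 3 was the shallowest library, with 19 counts of Fdft1 and 8 of Mvd. The slope over all stages and the late minus early difference in Smchd1matΔ embryos were therefore also computed without these 3 libraries. The slopes within the early or late stages, the steps between successive stages and the comparisons of genotype were not refitted without all 3. Levels in bulk tissue cannot tell fewer cells of a type from less RNA per cell.

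Cells build cholesterol from acetyl-CoA through mevalonate, isoprenoid units, squalene and lanosterol, and embryos need it for membranes and for the maturation of Hedgehog proteins. The genes of the pathway share a control. When sterols run low, the transcription factor SREBP2 is carried from the endoplasmic reticulum by SCAP, is cleaved and enters the nucleus, where it activates nearly the whole pathway. INSIG1 holds SCAP back when sterols are plentiful, and its own gene is a target of SREBP.

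In the order of the pathway, Hmgcs1 encodes the synthase that makes HMG-CoA, and Mvd encodes the decarboxylase that makes isopentenyl diphosphate. Idi1 encodes the isomerase of that unit. Fdft1, squalene synthase, makes the first intermediate committed to sterols. Sqle oxidises squalene and is a rate-limiting step, Cyp51 demethylates lanosterol, and Dhcr7 carries out the final reduction to cholesterol. In GRCm38.p6, as the deposited table gives it, Sqle lies at chr15:59315077-59331192 on the forward strand. Hmgcs1 lies at chr13:119690379-119708260 and Insig1 at chr5:28071363-28078662, both on the forward strand, and Mvd at chr8:122433601-122443422 on the reverse strand.

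Sequence upstream of the start was available from RefSeq for 6 of the 8 genes, not for Sqle and Fdft1. It was searched on both strands, over 250 bases before the start, for 3 motifs: TCACNCCAC, the letters of the sterol element that SREBP binds in textbook promoters, CCAAT, bound by NF-Y, and GGGCGG, the GC box bound by Sp1. The sterol element letters occurred in 1.05% of 32851 promoters, CCAAT in 33.8% and GGGCGG in 32.7%. Among the 6 genes the sterol element letters were present in Hmgcs1 alone, starting 137 bases before the start. CCAAT was present upstream of all 6 genes, for Dhcr7 at 1 of its 3 listed starts, and so was GGGCGG, for Dhcr7 at 2 of the 3. A match is a description of the letters and not a binding site. The stretches of Hmgcs1, which held all 3 motifs, of Insig1, which had the steepest slope below, and of Mvd, whose slope in Smchd1matΔ embryos did not pass the threshold, are printed 5′ to 3′ on the gene's strand, with the matches on either strand in capitals and with only bases upstream of the start in both RefSeq and GENCODE M21. Of Mvd the 100 bases nearest the start are shown, which leave out its GGGCGG at 140 to 135 bases. They cover chr13:119690101-119690350, chr5:28071162-28071362 and chr8:122443423-122443522.
Hmgcs1: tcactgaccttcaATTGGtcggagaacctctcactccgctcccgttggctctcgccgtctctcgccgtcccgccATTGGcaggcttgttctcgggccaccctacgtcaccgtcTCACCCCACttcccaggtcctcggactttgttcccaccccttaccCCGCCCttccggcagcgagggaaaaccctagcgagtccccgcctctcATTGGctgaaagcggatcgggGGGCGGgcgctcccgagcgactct
Insig1: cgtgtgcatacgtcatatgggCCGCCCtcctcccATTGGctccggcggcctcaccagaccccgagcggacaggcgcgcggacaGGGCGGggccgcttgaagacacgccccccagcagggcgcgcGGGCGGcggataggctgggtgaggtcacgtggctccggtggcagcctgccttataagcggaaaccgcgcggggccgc
Mvd: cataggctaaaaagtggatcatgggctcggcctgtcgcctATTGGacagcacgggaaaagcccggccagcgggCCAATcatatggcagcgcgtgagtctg

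Levels between genes were compared as CPM per kilobase of exon, over all 37 embryos. Hmgcs1 was the highest at 51.9 ± 18.8 (SD, n = 37), followed by Cyp51 at 27.5 ± 9.84 and Sqle at 19.7 ± 5.26 CPM per kilobase. Fdft1 (14.9 ± 3.96), Mvd (13.3 ± 3.47), Insig1 (13.2 ± 5.76) and Idi1 (11.5 ± 4.57) did not differ beyond their spread, and Dhcr7 was the lowest at 6.50 ± 1.41. The spread includes the change over stages that follows.

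Sqle stayed in a narrow range from 6 to 8 somites and was higher from 9 somites on, in both genotypes. At 6 somites the 4 Smchd1wt embryos had 79.1, 94.0, 81.4 and 84.2 CPM and the 4 Smchd1matΔ embryos 71.6, 97.2, 65.7 and 84.3 CPM. At 7 somites the values were 82.4, 95.0, 86.3 and 71.6 CPM in Smchd1wt and 95.7, 92.8 and 93.5 CPM in Smchd1matΔ embryos. At 8 somites they were 79.5, 94.0 and 83.7 CPM in Smchd1wt and 90.6 and 93.6 CPM in Smchd1matΔ embryos. No embryo of these 3 stages passed 97.2 CPM. At 9 somites the Smchd1wt embryos had 121, 116 and 155 CPM and the Smchd1matΔ embryos 99.7 and 142 CPM. At 10 somites the values were 116, 144, 118 and 148 CPM in Smchd1wt and 121, 123 and 155 CPM in Smchd1matΔ embryos. At 11 somites they were 133, 158 and 163 CPM in Smchd1wt and 148 and 154 CPM in Smchd1matΔ embryos. All 17 embryos with 9 to 11 somites thus lay above all 20 embryos with 6 to 8 somites, the nearest being replicate 1 of Smchd1matΔ at 9 somites. Mean Sqle was 84.7 ± 7.26 CPM (n = 11) and 137 ± 18.7 CPM (n = 10) in the early and late Smchd1wt embryos, and 87.2 ± 11.2 CPM (n = 9) and 135 ± 20.7 CPM (n = 7) in the Smchd1matΔ embryos.

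Insig1 was also higher from 9 somites on in both genotypes, with a wider spread. In Smchd1wt embryos its values were 30.9, 32.9, 27.5 and 21.1 CPM at 6 somites, 20.9, 46.0, 28.3 and 22.3 CPM at 7, and 20.5, 33.1 and 29.2 CPM at 8. They were 49.9, 48.4 and 62.8 CPM at 9 somites, 52.8, 65.9, 49.3 and 64.3 CPM at 10, and 62.1, 51.2 and 85.4 CPM at 11. The highest early Smchd1wt embryo, replicate 2 at 7 somites, came close to the late range. In Smchd1matΔ embryos the values were 15.7, 23.1, 19.7 and 22.1 CPM at 6 somites, 27.4, 28.2 and 30.4 CPM at 7, and 31.6 and 25.1 CPM at 8. They were 41.4 and 49.5 CPM at 9 somites, 47.4, 53.7 and 69.4 CPM at 10, and 55.4 and 68.4 CPM at 11. The groups up to 8 and from 9 somites did not overlap in either genotype, and the Smchd1matΔ embryos at 6 somites all lay below those at 7 and 8.

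Mvd did not follow this shape in Smchd1matΔ embryos. Its values there were 31.9, 25.3, 8.77 and 21.6 CPM at 6 somites, 25.7, 21.7 and 23.7 CPM at 7, and 24.0 and 25.3 CPM at 8, the 8.77 CPM being from the shallowest library. They were 25.6 and 22.3 CPM at 9 somites, 26.7, 24.5 and 34.3 CPM at 10, and 29.9 and 33.4 CPM at 11. In Smchd1wt embryos Mvd had a lowest, median and highest value of 15.7, 18.7 and 26.6 CPM up to 8 somites and of 22.0, 29.0 and 37.1 CPM from 9 somites, so that these ranges overlapped too. The other 5 genes in Smchd1wt embryos also overlapped between the stages. Hmgcs1 went from 136, 170 and 265 CPM to 184, 329 and 445 CPM, and Idi1 from 20.1, 30.1 and 46.4 CPM to 35.01, 53.5 and 78.4 CPM. Fdft1 went from 44.4, 50.6 and 66.1 CPM to 62.9, 80.0 and 99.4 CPM, Cyp51 from 74.4, 89.9 and 141 CPM to 125, 171 and 220 CPM, and Dhcr7 from 27.3, 32.0 and 37.0 CPM to 32.1, 46.3 and 59.0 CPM. In each of the 5 the late median lay above the early one, and the highest early embryo lay above the lowest late one.

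**Figure D1:**
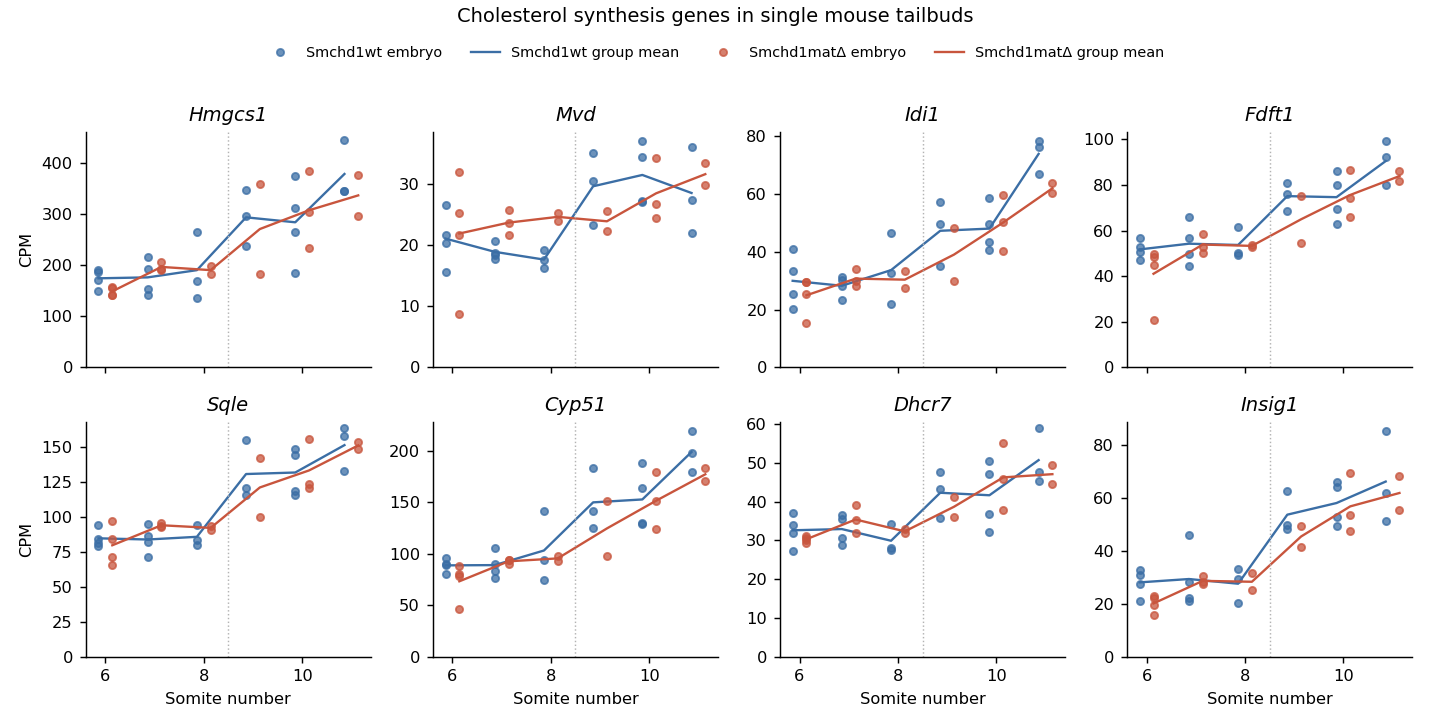
Level of each gene in CPM (vertical axis, from 0) against somite number, with 1 point per embryo, Smchd1wt in blue and Smchd1matΔ in red, lines through the group means and a dotted line between 8 and 9 somites. Sqle stays at or below 97.2 CPM up to 8 somites and at or above 99.7 CPM from 9 somites, while Mvd overlaps between the early and late embryos.

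The slope on somite number in the 16 Smchd1matΔ embryos was fitted with sex as a covariate (edgeR quasi-likelihood test, Benjamini-Hochberg adjustment over all genes, threshold 0.05), and is given as the log2 change per somite with its standard error (SE). Of the 8 genes, 7 rose and none fell, where 3.07% of the 15477 genes tested passed the threshold in either direction and 1.93% did so rising. The median slope of the 8 genes was 0.21, and that of all genes tested 0.0024. Insig1 rose the most, by 0.34 (SE 0.032, edgeR adjusted p = 9.5e-06), the third smallest p of all genes. Idi1 rose by 0.26 (SE 0.038), Hmgcs1 by 0.25 (SE 0.034) and Cyp51 by 0.25 (SE 0.030), with edgeR adjusted p-values of 5.1e-04, 3.9e-04 and 1.3e-04. Sqle rose by 0.18 (SE 0.025, edgeR adjusted p = 3.8e-04) and Fdft1 by 0.18 (SE 0.031, edgeR adjusted p = 0.0024). Dhcr7 had the smallest slope of those that passed, 0.13 (SE 0.025, edgeR adjusted p = 0.0064), and its adjusted p was 0.052 without replicate 2 at 11 somites. Mvd had a slope of 0.083 (SE 0.039, edgeR adjusted p = 0.27) and did not pass. Without the ribosomal-rich libraries and the shallow one together, the same 7 genes passed, with Sqle at 0.17 and Insig1 at 0.32 per somite.

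In the 21 Smchd1wt embryos the slopes were 0.29 for Insig1 (SE 0.042), 0.26 for Idi1 (SE 0.038), 0.24 for Cyp51 (SE 0.030), 0.23 for Hmgcs1 (SE 0.036), 0.19 for Sqle (SE 0.023), 0.16 for Fdft1 (SE 0.024), 0.14 for Mvd (SE 0.035) and 0.13 for Dhcr7 (SE 0.028). Over all genes, 6.64% of 15148 passed the threshold there in either direction and 3.13% rising. The 8 genes are not counted against these shares, because this contrast chose Sqle and the others were named with it. The order of the genes was nearly the order in Smchd1matΔ embryos. The difference in slope, Smchd1matΔ minus Smchd1wt, ran from −0.055 for Mvd (SE 0.052) to 0.058 for Insig1 (SE 0.057) and was −0.0019 for Sqle (SE 0.034), each about its SE or smaller. It is given without a test because it contains the slope by which Sqle was chosen.

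**Figure D2:**
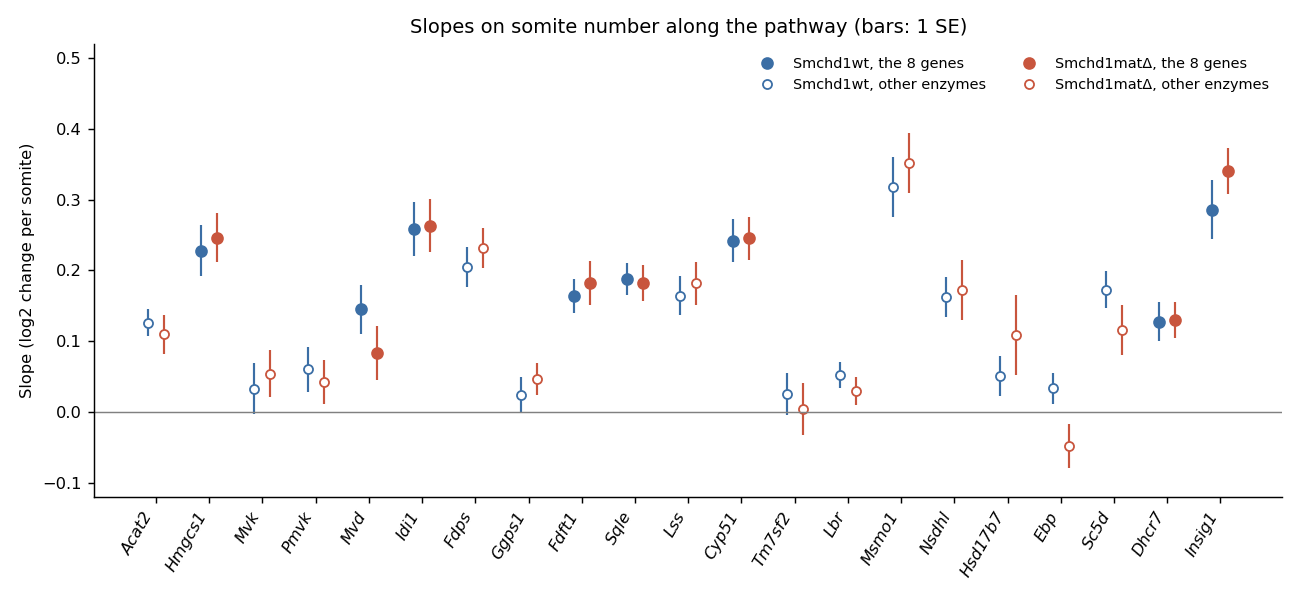
Slope on somite number as log2 change per somite (vertical axis, bars 1 SE) for the enzymes of cholesterol synthesis in pathway order and Insig1, with some enzymes not shown, Smchd1wt in blue and Smchd1matΔ in red, with filled points for the 8 genes and open points for the other enzymes. The slopes of the 8 genes lie between 0.083 and 0.34, and those of the other enzymes shown between −0.048 and 0.35.

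The rise was also measured between the stages up to 8 and those from 9 somites. Taken as 2 windows, 9 to 11 minus 6 to 8 somites, 7 of the 8 genes were higher in the late Smchd1matΔ embryos (edgeR, a comparison chosen after seeing the data), where 1.89% of genes passed. Insig1 differed by 1.12 on the log2 scale (SE 0.14), from a lowest, median and highest value of 15.7, 25.1 and 31.6 CPM to 41.4, 53.7 and 69.4 CPM. Idi1 differed by 0.84 (SE 0.16), from 15.4, 29.4 and 34.1 CPM to 30.0, 50.4 and 63.8 CPM. Hmgcs1 differed by 0.81 (SE 0.14), from 142, 182 and 206 CPM to 183, 304 and 384 CPM. Insig1 did not overlap between the windows, whereas Idi1 and Hmgcs1 each had 1 late embryo within the early range. Cyp51 differed by 0.80 (SE 0.13), from 46.0, 90.0 and 97.6 CPM to 97.9, 151 and 184 CPM. Fdft1 differed by 0.58 (SE 0.12), from 20.8, 50.2 and 58.5 CPM to 54.6, 75.3 and 86.5 CPM. Dhcr7 differed by 0.43 (SE 0.093), from 29.3, 31.8 and 39.0 CPM to 36.0, 44.6 and 55.0 CPM. The late range of Cyp51 began just above its early range, and those of Fdft1 and Dhcr7 overlapped the early one. Mvd differed by 0.24 (SE 0.14, edgeR adjusted p = 0.47), from 8.77, 24.0 and 31.9 CPM to 22.3, 26.7 and 34.3 CPM, with ranges that overlapped widely.

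In Smchd1matΔ embryos 3 of the 8 genes, Sqle, Cyp51 and Insig1, had every late embryo above every early one, as had 0.485% of the genes tested. In Smchd1wt embryos 2 of the 8, Sqle and Insig1, did so, and 0.132% of all genes tested. The Smchd1wt count is a description and is not weighed against that share, because the slope in these embryos chose Sqle. Replicate 1 of Smchd1matΔ at 9 somites was the lowest late Smchd1matΔ embryo for 7 of the 8 genes, Mvd being the exception. Without it 6 of the 8 genes did not overlap, against 1% of genes. Leaving out the embryo in which these genes were lowest favours their count over that of other genes. The 6 of 8 is thus a description and cannot be weighed against the 1%. That embryo had 2114 CPM summed over 12 endoderm markers, where early Smchd1matΔ embryos had 730 to 2218 CPM and late ones 137 to 3646 CPM. It was 1 of 4 late embryos over 1000 CPM, with replicate 1 of Smchd1wt at 9 somites, replicate 1 of Smchd1wt at 10 somites and replicate 2 of Smchd1matΔ at 10 somites. All 12 endoderm markers were detected in every embryo, and 11 of the 12 had a negative slope in Smchd1matΔ embryos, 0 of which passed the threshold. Without the 2 Smchd1matΔ embryos named, the same 7 genes passed in the slope, with Sqle at 0.19 per somite. With the endoderm sum as a covariate 7 genes passed in the slope, with Sqle at 0.16. Between the windows 4 of 8 passed with that covariate (Sqle, Hmgcs1, Cyp51 and Insig1).

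Within a window no gene passed the threshold, although the estimates in Smchd1matΔ embryos were positive for all 8 genes in both windows. Across 6 to 8 somites the slopes in Smchd1matΔ embryos ran from 0.015 (Mvd) to 0.25 (Insig1), with a median of 0.14, and across 9 to 11 somites from 0.19 (Dhcr7) to 0.39 (Idi1), with a median of 0.25. No gene of the genome passed in either fit (0% of genes), and at an unadjusted p under 0.05 there were 2 and 5 of the 8 genes, against 538 of 15419 and 322 of 15543 genes tested. In Smchd1wt embryos the slopes within 6 to 8 somites ran from −0.14 (Dhcr7) to 0.055 (Cyp51). Between successive stages of Smchd1matΔ embryos no gene of the genome passed either. The largest steps of Insig1 there were 0.69 from 6 to 7 (SE 0.18), 0.68 from 8 to 9 (SE 0.19) and 0.51 from 9 to 10 somites (SE 0.20). In Smchd1matΔ embryos the step from 8 to 9 somites was the largest of the 5 for Sqle alone (0.39, SE 0.18). The step from 6 to 7 was the largest for Hmgcs1 (0.60), Fdft1 (0.36), Cyp51 (0.39) and Insig1. That from 9 to 10 was the largest for Idi1 (0.52), Mvd (0.38) and Dhcr7 (0.33). The steps from 6 to 7 rest on the group that holds the ribosomal-rich libraries and the shallowest one, and were not refitted without them. The median steps of the 8 genes were 0.38 from 6 to 7, −0.15 from 7 to 8, 0.37 from 8 to 9, 0.36 from 9 to 10 and 0.13 from 10 to 11 somites. Over both genotypes the step from 8 to 9 somites was the largest of the 5 steps for 7 of the 8 genes, at 0.83 for Insig1 (SE 0.17), 0.54 for Hmgcs1 (SE 0.17) and 0.51 for Sqle (SE 0.11). Idi1 was the exception, with 0.41 (SE 0.19) from 8 to 9 and 0.49 (SE 0.17) from 10 to 11 somites. These last values include the Smchd1wt embryos and are a description.

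The comparison the study was designed for, Smchd1matΔ against Smchd1wt embryos at matched somite number, gave no difference past the threshold in the 8 genes. Over all stages 0 of 8 passed the threshold (edgeR, somite number and sex as covariates), where 0.0125% of 15978 genes did, and 0 of 8 had an unadjusted p under 0.05. The DESeq2 Wald test also called 0 of 8. The log2 differences, Smchd1matΔ minus Smchd1wt, were 0.018 for Sqle (SE 0.056), −0.045 for Hmgcs1 (SE 0.091), 0.10 for Mvd (SE 0.091), −0.12 for Idi1 (SE 0.099) and −0.092 for Fdft1 (SE 0.067). They were −0.11 for Cyp51 (SE 0.078), 0.0060 for Dhcr7 (SE 0.063) and −0.14 for Insig1 (SE 0.091). Against the late minus early difference of 0.61 in Sqle, the genotype difference was thus within 1 SE of 0.

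At 6 to 8 somites 0 of 8 passed (0.00639% of 15652 genes), with 1 gene, Mvd, at an unadjusted p under 0.05. Its lowest, median and highest values were 15.7, 18.7 and 26.6 CPM in Smchd1wt and 8.77, 24.0 and 31.9 CPM in Smchd1matΔ embryos, which overlapped. The difference was 0.30 (SE 0.13, edgeR adjusted p = 0.60, and 0.23 to 0.93 over the alternative settings). Sqle differed by 0.091 (SE 0.074) and Insig1 by −0.16 (SE 0.15). At 9 to 11 somites 0 of 8 passed (0.00635% of 15757 genes), none had an unadjusted p under 0.05, and the differences ran from −0.10 (Cyp51, SE 0.10) to 0.016 (Hmgcs1, SE 0.13). At single stages no gene of the genome passed (0% of genes at each of the 6 stages). The unadjusted p was under 0.05 for Insig1 at 6 somites (−0.45, SE 0.20), Mvd at 7 (0.32, SE 0.12) and 8 somites (0.48, SE 0.18) and Idi1 at 11 somites (−0.25, SE 0.11), that is 4 of 48 gene and stage pairs. Over all genes the number at that level ran from 84 of 15013 at 10 to 1327 of 15332 at 11 somites, with 786 of 14191 at 6, 705 of 14611 at 7 and 421 of 14991 at 8 somites. At 7 somites all 8 differences were positive, from 0.0090 to 0.32, at 6 and at 11 somites 7 of 8 were negative, and at 9 somites all 8 were negative, from −0.32 to −0.11. At 9 somites 1 embryo of each genotype was over 1000 CPM of endoderm markers, replicate 1 of Smchd1matΔ (2114 CPM) and replicate 1 of Smchd1wt (1280 CPM). The part of endoderm content in these differences was not tested.

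**Figure D3:**
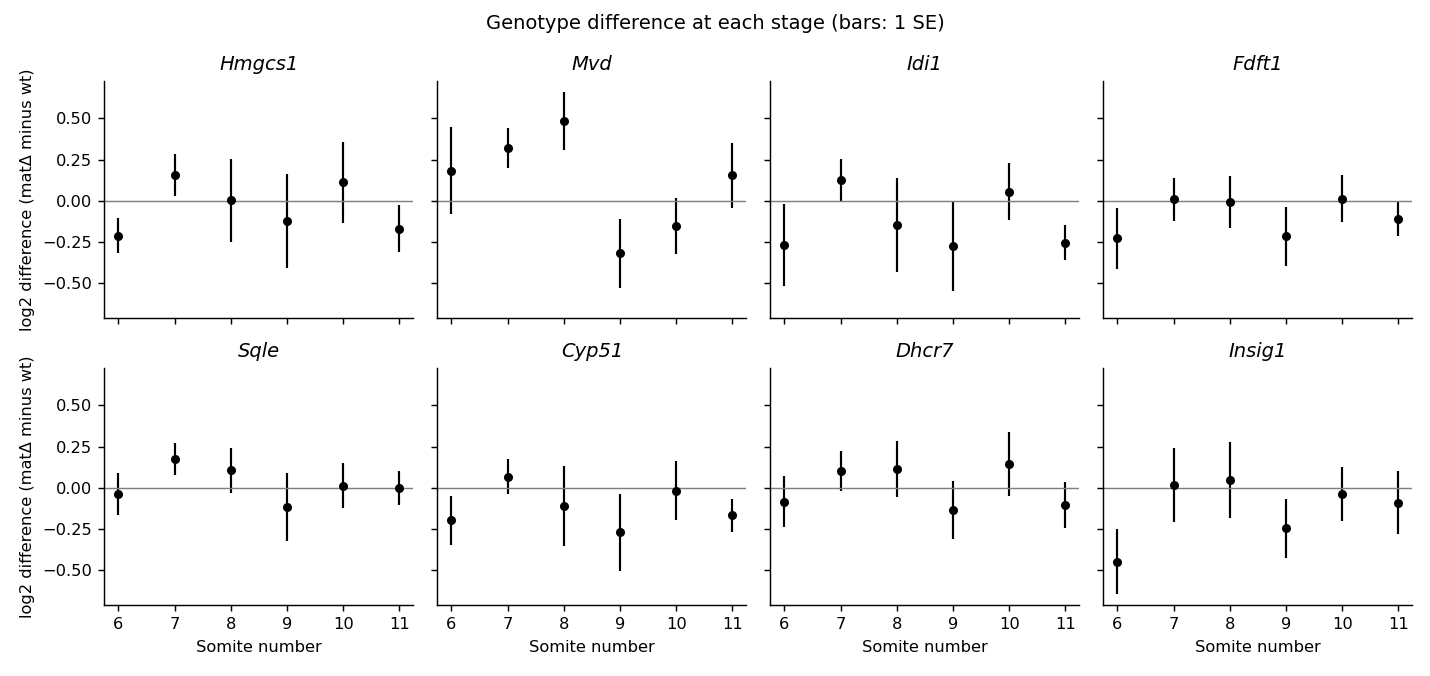
Genotype difference, Smchd1matΔ minus Smchd1wt, on the log2 scale (vertical axis, bars 1 SE) against somite number for each gene. The differences of Sqle lie between −0.11 and 0.17, and those of Mvd between −0.32 and 0.48.

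Sex was unevenly spread over the stages, with no male at 6 somites. None of the 8 genes passed between males and females (edgeR, 0.219% of genes passed), and none had an unadjusted p under 0.05. The log2 differences, male minus female, were negative for all 8, from −0.18 (Mvd, SE 0.11) to −0.026 (Fdft1, SE 0.080), and −0.087 for Sqle (SE 0.066). The direction of the means, which were not adjusted for stage, was not the same in both windows. At 6 to 8 somites the mean was higher in the 7 males than in the 13 females for 7 of the 8 genes, at 89.4 and 83.9 CPM for Sqle. At 9 to 11 somites it was lower in the 6 males than in the 11 females for all 8, at 127 and 141 CPM for Sqle. The early females include every embryo at 6 somites. Of the late embryos over 1000 CPM of endoderm markers, replicate 1 of Smchd1matΔ at 9 somites was female and the others were male. The part of stage and of endoderm content in these directions was not tested.

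Other genes of sterol and lipid metabolism were taken from lists of pathway genes drawn up with the 8 genes. In the Smchd1matΔ slope 1.93% of the 15477 genes tested passed rising and 3.07% in either direction. These shares stand beside the count of each list below. Of 15 other enzymes of cholesterol synthesis, 7 rose with somite number in Smchd1matΔ embryos and 0 fell (edgeR), with a median slope of 0.11. Msmo1, a sterol demethylase, rose by 0.35 per somite (SE 0.042, edgeR adjusted p = 1.1e-04), and Fdps, which makes farnesyl diphosphate, by 0.23 (SE 0.028, edgeR adjusted p = 1.1e-04). Lss, which closes the sterol rings, rose by 0.18 (SE 0.030), and Acat2 and Nsdhl were among the others that rose. The other 8, among them Mvk and Pmvk of the mevalonate steps and Ebp and Tm7sf2 of the late steps, did not pass. In Smchd1wt embryos 8 of the 15 rose, the same 7 and Sc5d, where 3.13% of the 15148 genes tested rose. The Smchd1wt count is a description, because results of these data were known when the lists were drawn up.

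Of 6 genes of SREBP control, Srebf2, which encodes SREBP2, rose by 0.13 per somite in Smchd1matΔ embryos (SE 0.020, edgeR adjusted p = 0.0011), and the others did not pass. Srebf1 had a slope of 0.070 (SE 0.029), Mbtps2, a protease that releases SREBP, of 0.070 (SE 0.031), and Scap of −0.069 (SE 0.032). Of 8 genes of uptake and transport, 2 rose, among them Stard4, a sterol carrier, by 0.14 (SE 0.029, edgeR adjusted p = 0.0088). Lrpap1 (−0.16, SE 0.050) and Npc1 (−0.081, SE 0.036) did not pass, and the median slope of the list was −0.042. Lrpap1 passed when replicate 1 at 9 somites (edgeR adjusted p = 0.025) or replicate 2 at 10 somites (edgeR adjusted p = 0.019) was left out. Both are the endoderm-rich embryos.

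Of 8 genes of efflux, storage and the sterol sensor LXR, Mylip, a ubiquitin ligase and LXR target, rose by 0.12 (SE 0.028, edgeR adjusted p = 0.024). Abcg1 (0.21, SE 0.11), Abca2 (0.062, SE 0.036) and Apoe (−0.27, SE 0.18) did not pass. Apoe was at −0.46 (edgeR adjusted p = 0.060) without replicate 2 at 10 somites, and passed at −0.55 (edgeR adjusted p = 0.0039) without both endoderm-rich embryos. The adjusted p of Mylip was 0.050 to 0.13 when replicate 2 at 6, replicate 1 or 2 at 7 or replicate 2 at 11 somites was left out. Of 10 genes of fatty acid synthesis, 3 rose: the desaturases Scd2 (0.14, SE 0.024) and Scd1 (0.12, SE 0.030) and the elongase Elovl6 (0.14, SE 0.035). Fads2 had 0.074 (SE 0.021, edgeR adjusted p = 0.063), and 0.028 without replicate 1 at 9 somites. Scd1 and Elovl6 lost their calls, with adjusted p-values up to 0.18, when 1 embryo was left out (replicates 1 or 2 at 6, 1 at 7, 3 at 10 or 2 at 11 somites for both, replicate 4 at 6 for Elovl6 and replicate 2 at 9 for Scd1). Scd2 kept its call in each such fit. Without the ribosomal-rich libraries and the shallowest one, Scd1, Elovl6 and Mylip lost their calls (edgeR adjusted p = 0.18, 0.084 and 0.13). They also lost them without the ribosomal-rich libraries alone (edgeR adjusted p = 0.16, 0.15 and 0.096), and Scd2 kept its call in both fits. Of 7 genes of the isoprenoid side branches, which use mevalonate products for other ends, 0 passed, with slopes of 0.064 for Pggt1b (SE 0.026), 0.049 for Nus1 (SE 0.016), −0.023 for Fntb (SE 0.021) and 0.013 for Dhdds (SE 0.023).

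None of these genes passed the threshold between genotypes over all stages (edgeR). The genes named here are among those with the lowest unadjusted p-values of each list. Not all of these were under 0.05, and none was in the list of efflux, storage and LXR. The low values belonged to Tm7sf2 (0.16, SE 0.080) and Mvk (0.12, SE 0.087), to Mbtps2 (−0.17, SE 0.071) and Scap (0.11, SE 0.069), and to Npc2 (−0.076, SE 0.044). In the other lists they belonged to Abca2 (0.18, SE 0.091) and Soat1 (−0.088, SE 0.057), to Fasn (0.20, SE 0.085) and Scd1 (−0.078, SE 0.067), and to Pdss1 (−0.23, SE 0.088) and Pggt1b (−0.097, SE 0.051). Their edgeR adjusted p-values were 0.87 to 0.91.

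Some marker genes of the tailbud and of other cells also changed over the same stages, while most did not pass. In the Smchd1matΔ slope 3.07% of the 15477 genes tested passed in either direction. In Smchd1matΔ embryos all 9 erythroid markers had positive slopes, of which Hbb-y passed (1.02 per somite, SE 0.21), and their summed level was 10.3 to 3099 CPM at 6 to 8 and 447 to 4272 CPM at 9 to 11 somites. Of these 9 markers 5 were at 0 in at least 1 embryo. Of 5 endothelial markers 2 rose, Cdh5 and Emcn, with a sum of 158 to 273 and then 185 to 376 CPM. The tailbud markers summed to 1051 to 1450 CPM early and 1085 to 1536 CPM late, and 1 of the 10 rose (Cyp26a1) and 1 fell (Nkx1-2). Of 6 somite markers 4 had enough counts to be tested, and none of these or of the 4 neural tube markers passed in Smchd1matΔ embryos. The part of these markers in the rise was not tested, save for the endoderm sum above. Total counts rose too, from a median of 12131992 to 14577260 in Smchd1matΔ embryos, and which library kit was used for which embryo is not given in the sources used here, so its part was not tested.

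Within a group of 1 genotype and 1 stage, the levels of the 8 genes were also compared from embryo to embryo. The deviations of log2 CPM from the 12 group means were correlated over the 37 embryos, which share depth and dissection within a library, and the values are a description. Removing the group means leaves fewer independent values than embryos. In a group of 2 embryos the deviations are mirror images of each other. The median Pearson's r over the 28 pairs was 0.48 (median Spearman's rho 0.51), and 26 pairs were positive. Pairs of other genes were not measured in this way. Whether these values exceed those of expressed genes in general was thus not tested. The closest pair was Fdft1 and Cyp51 (r = 0.86, rho = 0.87), followed by Sqle and Cyp51 (r = 0.79, rho = 0.80) and Hmgcs1 and Dhcr7 (r = 0.77, rho = 0.78). Mvd stood apart, at −0.27 with Idi1 (rho −0.057), −0.013 with Insig1 and 0.065 with Hmgcs1. Its r of 0.70 with Fdft1 fell to 0.32 when the ribosomal-rich libraries and those under 5000000 counts, 4 in all, were left out. Without these 4 the median r of all pairs was 0.65 over 33 embryos, the median r of Sqle with the other 7 was 0.77 and that of Mvd 0.17. The median r was 0.58 in Smchd1wt and 0.47 in Smchd1matΔ embryos, 0.32 within 6 to 8 and 0.78 within 9 to 11 somites.

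**Figure D4:**
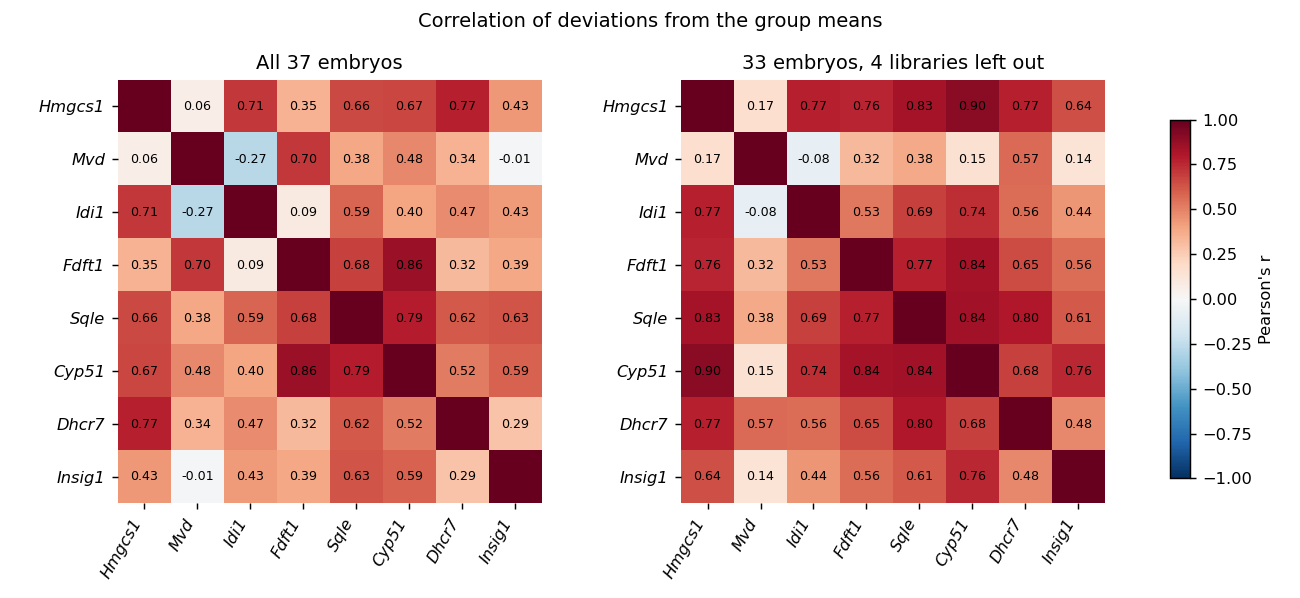
Pearson's r of the deviations of log2 CPM from the group means for each pair of the 8 genes, over all 37 embryos (left) and over 33 embryos (right, leaving out 2 ribosomal-rich and 2 shallow libraries). Cyp51 with Hmgcs1 rises from 0.67 to 0.90, while the row of Mvd stays at or below 0.57 on the right.

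A score per embryo, the mean of the 8 scaled deviations, was compared with other genes and with properties of the library. Among 11201 other genes with a mean of at least 5 CPM, the 10 most like the score over the 37 embryos were Msmo1 (r = 0.91), Fdps (0.81), Acat2 (0.78), Gm43738 (0.76), Pank1 (0.75), Map2k6 (0.74), Stau2 (0.74), Chd2 (0.73), Pcbp2 (0.72) and Rb1 (0.72). The first 3 are enzymes of the pathway, and Lss ranked 16. Without the 4 libraries named, Msmo1 stayed first (r = 0.91), and Acat2 (0.88) and Nsdhl (0.86) ranked 3 and 4. The score had r = −0.47 (rho −0.45) with the endoderm marker sum, 0.49 (rho 0.43) with the somite marker sum and 0.0051 (rho −0.22) with log10 total counts. Without the 2 embryos farthest on each measure these were −0.45, 0.35 and −0.31. With the slope of a library's levels on the GC content of genes it had r = −0.30 (rho −0.36), and −0.58 without the 2 embryos farthest on that slope. Higher scores thus went with lower endoderm markers and lower levels of GC-rich genes, and the exons of Mvd had the highest GC content of the 8 genes, 59.2% against 41.1 to 52.3%. The part of either in the co-variation was not tested.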

How the data were processed

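The deposited table held raw counts per gene for 37 libraries, made by the authors with Trim Galore 0.4.4, HISAT2 2.0.5 against GRCm38.p6 and SeqMonk, and not normalised. Per the labels, kits were stranded or unstranded TruSeq. The table has 35591 rows, and 49 repeated identifiers were dropped. Deposited tables of log2 RPKM for Hox genes and of the authors' own tests (p-values and fold changes) were not used. Promoter sequence came from RefSeq for GRCm38.p6.

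The 8 genes and the lists were chosen with earlier results of these data known. The genes named from each list are up to 4 with the smallest p in the Smchd1matΔ slope and up to 2 in the fit of genotype, and the 10 most like the score. Some genes of the lists are counted but not reported here by name. Counts were tested with edgeR 4.0.16 (R 4.3.3): filterByExpr with a minimum count of 10, TMM, quasi-likelihood test, Benjamini-Hochberg adjustment, threshold 0.05, two-sided. Genotype within windows and over all stages had somite number and sex as covariates, and genotype at single stages had none. Slopes and the late minus early comparison had sex. Steps between successive stages had sex, and also genotype where both genotypes were fitted. The SE is the log2 change over the root of F. CPM used TMM, and log2 CPM a prior count of 2. The code was tested on simulated data. Embryos were the replicates. Pairs within a group differed by more than sampling noise (chi-square per degree of freedom 5.12 to 72.3 over 42 pairs), and the labels do not give litters, so p-values measure the spread between these embryos.

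Alternatives were DESeq2 1.42.0, its size factors in edgeR, no filter, no sex term, females alone, a replicate block, stage groups, and libraries left out. The comparisons of late with early stages and of successive stages, the GC and endoderm covariates and the fits without 3 libraries or 2 embryos were added after seeing the data.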

Additional observations from a re-analysis of the deposited data

Results flagged for a closer look

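Fdft1 in replicate 3 of Smchd1matΔ at 6 somites stood far from the other 3 embryos of its group, at 20.8 CPM against 45.0 to 49.9 CPM, with a gap of 0.831 of the group's range. This is the shallowest library, and the value rests on 19 counts. It was the only one of 32 sets of 4 embryos (8 genes in 4 groups) past Dixon's critical value, and chance flags about 1 in 20.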

How the results depend on the processing

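The count of the 8 genes past the threshold was 0 in each comparison of genotype and in sex under every alternative. For the Smchd1matΔ slope it was 7, except 6 (Dhcr7 lost, edgeR adjusted p 0.052) for 10 and 11 against 6 and 7 somites. With 1 embryo left out it was 6 to 7. All genes past the threshold in that slope numbered 254 (replicate 2 at 11 somites) to 638 (replicate 3 at 6) with 1 embryo left out, 1127 with DESeq2, 175 in females, 152 between stage groups, 301 without the ribosomal-rich libraries and 187 with the endoderm covariate, 725 without the endoderm-rich embryos, against 475. In the Smchd1wt slope they numbered 668 to 1920 (without replicate 1 at 10 somites), 565 between stage groups and 1802 in females, against 1006. Between windows 4 of 8 (80 genes, against 293) passed with that covariate, 6 without the ribosomal-rich or all 3 libraries, and 684 genes without the endoderm-rich embryos. The count without overlap was 6 without replicate 1 at 9 somites, a count favoured by leaving out the embryo in which these genes were lowest. The median r was 0.78 within 9 to 11 somites. The deviations of same-numbered embryos of opposite genotype had a median r of 0.029 over 16 pairs. The r ran from −0.26 to 0.75, with 6 pairs over 0.1, and whether such pairs share a batch was not tested. The replicate block left 0 of 8 in every genotype fit. Genotype estimates near 0 changed sign. With the block these were Hmgcs1 over all stages (0.025), Sqle (−0.019), Hmgcs1 (−0.075) and Dhcr7 (−0.014) early, and Sqle (0.047), Insig1 (0.0022) and Mvd (0.0099) late. With the GC covariate they were Hmgcs1 (0.050) and Idi1 (0.015) over all stages and Idi1 (0.16) and Cyp51 (0.015) early. Without the sex term and in females Hmgcs1 was −0.030 and −0.031 early and −0.032 and −0.033 late, and Dhcr7 −0.0053 late without it. With 1 embryo left out the ranges over all stages were −0.0050 to 0.046 for Sqle and −0.021 to 0.023 for Dhcr7. Early they were −0.063 to 0.040 for Hmgcs1, −0.10 to 0.0038 for Fdft1 and −0.095 to 2.5e-04 for Cyp51. Late they were −0.043 to 0.069 for Sqle, −0.058 to 0.14 for Hmgcs1, −0.16 to 0.0010 for Idi1, −0.11 to 0.0041 for Fdft1 and −0.048 to 0.068 for Dhcr7. The slope of Dhdds ran from −0.0012 to 0.026. The causes were not tested. Sex could not be fitted at 6 somites, where all embryos were female.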
